A study of Tupaia belangeri with 6 samples.

Results

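GPNMB-positive microglia of the tree shrew hippocampus are described here, as nuclei that carried RNA of microglial genes together with RNA of GPNMB, which encodes glycoprotein NMB. They were selected on raw counts of unique molecular identifiers (UMIs, each standing for 1 captured RNA molecule), by a rule that asked for at least 200 detected genes, at least 2 UMIs summed over CSF1R, PTPRC, APBB1IP and P2RY12, at least 1 UMI of GPNMB, and 0 UMIs summed over MOG, PDGFRA, AQP4, GAD1 and NEUROD6. The rule kept 84 of 37603 nuclei, and the same rule without GPNMB kept 1194 microglia, so that 1110 microglia without a GPNMB UMI served for comparison. Levels of the 10 genes of the rule are therefore given as a description, without a test. The share of microglia with GPNMB is compared between the groups.

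The nuclei came from the hippocampus of 3 control tree shrews (TSs, *Tupaia belangeri*) and 3 TSs with Alzheimer's-like pathology (ALP), with 3 libraries per group. The labels do not say that each library is 1 animal. Both groups were taken from animals aged 5 to 6 years without a transgene or treatment. ALP TSs had been chosen for poor performance in a pipeline maze, and control TSs were healthy animals of the same age, while the sex of each animal was not given in the labels. Total counts per library lay between 19182981 and 35898940 UMIs, and the median per nucleus lay between 1747 and 5181 UMIs.

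Microglia are the resident macrophages of the brain, which depend on signalling through the receptor CSF1R and clear debris by uptake and lysosomal breakdown. GPNMB is a type I membrane glycoprotein of lysosomes and melanosomes that is low in resting microglia and is known to rise in macrophages under lysosomal or lipid load. Its gene is a known target of MITF and the related factors TFEB, TFE3 and TFEC, the MiT/TFE family, which also drive genes of lysosomal enzymes.

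Control 2 stood apart from the other libraries in depth. Its GPNMB-positive microglia held a median of 7442 UMIs, whereas the medians of the other libraries lay between 1168.5 and 2086. All 6 of its GPNMB-positive microglia carried at least 5 UMIs of neuronal markers, a limit met by 1 of 8 such nuclei in Control 1, 3 of 7 in Control 3, 6 of 13 in ALP 1, 8 of 32 in ALP 2 and 7 of 18 in ALP 3. The share of microglia with GPNMB and the numbers of genes called are given with and without Control 2. At most 0.465% of barcodes were shared between a pair of libraries, and 0 of the 84 nuclei shared a barcode with another library.

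The microglial label was checked against 27 microglial markers that the rule did not use. All 84 nuclei carried at least 1 UMI of these markers, and 25 of the 27 were detected. This share alone says little, since 85.2% of the nuclei with GPNMB and 0 microglial UMIs carried such a marker too, and the most abundant markers PLXDC2 and MEF2C were found in 53.0% and 32.5% of nuclei that were not microglia (ratios of 4.07 and 4.38). More specific markers set the members apart. The chemokine receptor gene CX3CR1 reached 132 UMIs per 1000000 UMIs (pooled CPM, the UMIs of a gene over all nuclei of a kind divided by all their UMIs, so that libraries with more nuclei weigh more) in the GPNMB-positive microglia against 0.925 in nuclei that were not microglia, a ratio of 142. For SPI1, the transcription factor gene that specifies myeloid cells, the ratio was 132, for the lymphoid and myeloid factor gene IKZF1 it was 109, and for the complement receptor gene ITGAM 88.6. TMEM119, another microglial marker, had 0 UMIs over all nuclei of the series and carries no information here. Of the markers of border macrophages, CD163, SIGLEC1, CCL24, CLEC10A and FOLR2 stood at 0 UMIs in the members. Over all nuclei of the series they had only 0, 0, 5, 21 and 5 UMIs, so these counts say little. In the members 25 of the 39 UMIs of this list belonged to F13A1. The list summed to 156 pooled CPM in GPNMB-positive and 96.2 in GPNMB-negative microglia and was higher in the positive nuclei of 4 of 6 libraries. Control 1 stood out, with 1697 against 190 and 19 of the 39 UMIs in its 8 positive nuclei, whereas Control 2 and ALP 3 had 0 UMIs in theirs. The part of these markers in the results was not tested, and the 4 genes called between the states below were called again without Control 1.

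The other markers proposed for these nuclei, CTSD and LAPTM5, separated them less clearly. CTSD, encoding the lysosomal protease cathepsin D, was detected in 46.4% of GPNMB-positive and 26.4% of GPNMB-negative microglia, and in 28.5% and 14.1% after each nucleus was thinned to 1000 UMIs. In library CPM (UMIs per 1000000 UMIs of a library and state, scaled by TMM factors), CTSD stood at 506, 0 and 144 in the GPNMB-positive microglia of Control 1 to 3 and at 181, 268 and 364 in ALP 1 to 3. Control 2 held no CTSD UMI in these nuclei, and CTSD was higher in the positive nuclei of 4 of 6 libraries, with a log2 fold change of 0.55 (SE 0.33, edgeR with Benjamini-Hochberg adjustment, adjusted p = 0.835). LAPTM5, encoding a lysosomal membrane protein of blood cells, rested on 17 UMIs in the GPNMB-positive microglia. Its log2 fold change was -0.030 (SE 0.42, edgeR, adjusted p = 0.994), and the sign of this value turned under 4 of the alternatives. Neither CTSD nor LAPTM5 thus set the GPNMB-positive microglia apart from other microglia beyond the spread between libraries.

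GPNMB counts in the selected nuclei had a median of 4 and a highest value of 33 UMIs. Exactly 1 GPNMB UMI was found in 15 nuclei, at least 2 in 69, at least 5 in 32 and at least 10 in 14. In sum they held 451 of the 1818 GPNMB UMIs of the series. The antisense-named feature GPNMB-AS-1 had 0 UMIs, so that no GPNMB signal was assigned to it.

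**Figure D1:**
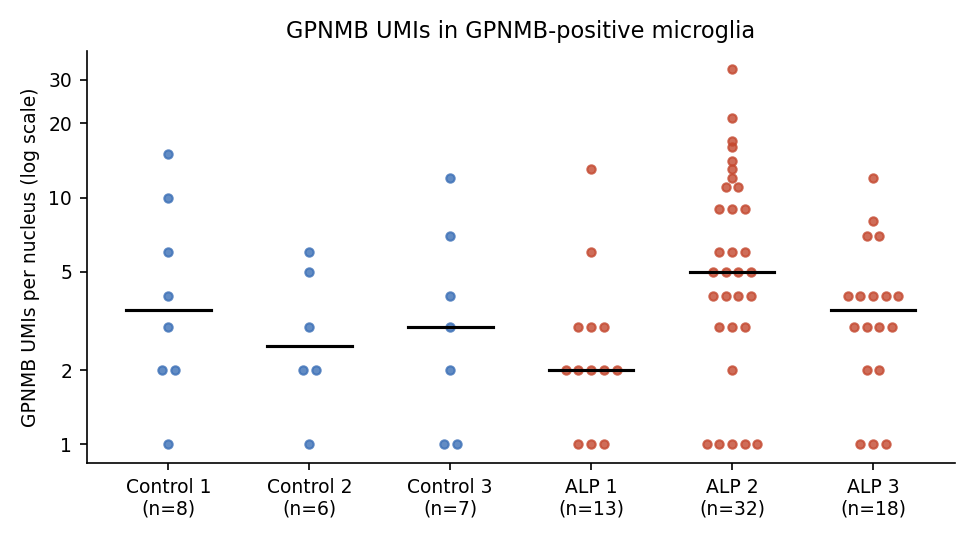
GPNMB UMIs of each GPNMB-positive microglial nucleus (y axis, log scale) by library (x axis), with 1 point per nucleus and a black bar at the median. The highest count, 33, belongs to ALP 2, and medians run from 2 in ALP 1 to 5 in ALP 2.

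Free RNA in droplets can place UMIs in nuclei that do not express a gene, so GPNMB was counted in classes that should lack it, each taken as nuclei with 0 UMIs of the microglial genes of the rule and at least 2 UMIs of exactly 1 exclusion gene. A GPNMB UMI was found in 12 of 3342 oligodendrocytes (0.359%), 3 of 632 oligodendrocyte precursors (0.475%), 6 of 891 astrocytes (0.673%) and 5 of 1235 excitatory neurons (0.405%), against 84 of 1194 microglia (7.04%). The median depth was 1628, 2119.5, 2224 and 8765 UMIs in these classes and 1182 UMIs in microglia. After thinning to 1000 UMIs the shares were 0.133%, 0.189%, 0.212% and 0.102% against 5.41% in microglia. The Wilson interval of microglia, from 5.72% to 8.63%, lay above the shares of these 4 classes, although the median microglial nucleus was the shallowest. These values pool the libraries. In Control 1 the microglial interval began at 1.05%, below the astrocyte share of 1.09% there (2 of 183 nuclei). In the other libraries it began above the shares of these 4 classes. The class of inhibitory neurons held only 11 nuclei, of which 1 had GPNMB (9.09%, Wilson interval 1.62% to 37.7%), too few to place it below or above microglia.

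At the edges of the rule, 30 members had exactly 2 microglial UMIs, and 31 further nuclei with GPNMB had exactly 1 and were left out. Members with 2 microglial UMIs held 5939 pooled CPM of the other microglial markers, nuclei with 1 microglial UMI held 6275, and members with at least 3 held 6678. A further 104 nuclei with GPNMB and at least 2 microglial UMIs were left out because they carried an exclusion gene, which was MOG in 82 of them. These were deep nuclei with a median of 10388 UMIs, and their other microglial markers stood at 2188 pooled CPM. The 84 members are thus a selected part of 188 nuclei with GPNMB and at least 2 microglial UMIs.

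The first comparison was the share of microglia with a GPNMB UMI, compared between ALP and control TSs. In control TSs it was 8 of 389 microglia in Control 1 (2.06%), 6 of 60 in Control 2 (10%) and 7 of 242 in Control 3 (2.89%). In ALP TSs it was 13 of 126 in ALP 1 (10.3%), 32 of 221 in ALP 2 (14.5%) and 18 of 156 in ALP 3 (11.5%). The ALP libraries all lay above the control libraries, but Control 2 lay close to ALP 1. The means were 4.98% ± 4.36 (SD, n = 3) and 12.1% ± 2.14 (SD, n = 3), a difference of 7.13 percentage points (2-sided exact permutation test, p = 0.1, the smallest value that 3 against 3 libraries allow). The 95% Wilson interval of Control 2, from 4.66% to 20.1%, contained all 3 ALP shares, and these intervals cover counting error only.

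Because the chance to catch a GPNMB UMI grows with depth, the share was also computed after thinning every microglial nucleus to 1000 UMIs. The expected shares were then 1.68%, 4.12% and 1.93% in Control 1 to 3 (252, 54 and 215 nuclei deep enough) and 11.6%, 13.3% and 11.6% in ALP 1 to 3 (55, 128 and 66 nuclei). Control 2 stayed the highest control but lay farther below the ALP libraries than before, and the means were 2.58% ± 1.34 and 12.1% ± 0.959 (SD, n = 3 each, exact permutation p = 0.1). Without Control 2 the unthinned difference was 9.64 percentage points. When nuclei with at least 5 neuronal marker UMIs were left out, Control 2 kept 0 GPNMB-positive microglia, and the shares were 2.21%, 0% and 3.05% in control and 7.87%, 15.2% and 9.73% in ALP TSs. The groups overlapped in 3 settings of the rule, with p = 0.2 in the exact permutation test when at least 2 GPNMB UMIs were required, p = 0.3 with at least 3 microglial UMIs and p = 0.2 without the exclusion genes. GPNMB was chosen with its rise in ALP microglia known, so these shares are no independent support for it.

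**Figure D2:**
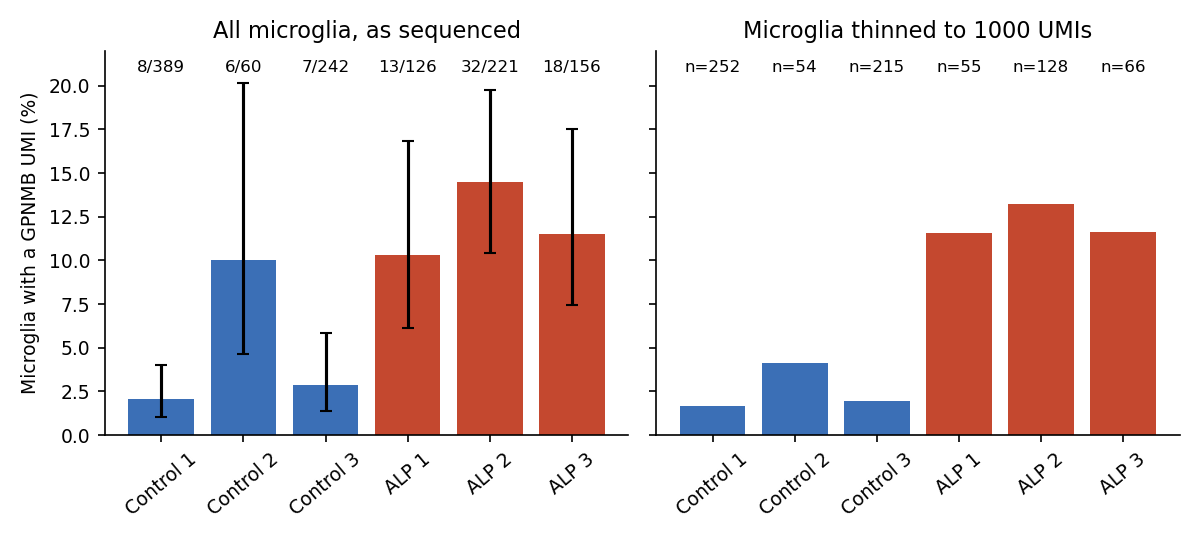
Share of microglia with a GPNMB UMI (y axis, percent) by library (x axis), before thinning with 95% Wilson intervals of counting error (left) and the expected share after thinning each nucleus to 1000 UMIs (right). Numbers above the bars are positive nuclei over microglia (left) and nuclei deep enough to be thinned (right). The control bar nearest to the ALP bars is Control 2, at 10% before and 4.12% after thinning.

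Microglia were 4.43%, 1.99% and 3.04% of nuclei in Control 1 to 3 and 2.47%, 3.09% and 2.79% in ALP 1 to 3, with overlapping groups and a difference of -0.37 percentage points (exact permutation p = 0.8), which turned to 0.27 without Control 1. When the exclusion genes were not used, the groups were apart, with 6.62%, 5.48% and 5.61% in Control 1 to 3 and 3.97%, 5.23% and 4.54% in ALP 1 to 3 (difference -1.33 percentage points, exact permutation p = 0.1). Summed over all microglia, GPNMB stood at 56.3, 43.4 and 29.4 UMIs per 1000000 UMIs in control and 149, 465 and 194 in ALP TSs, given as a description since GPNMB is a gene of the rule.

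GPNMB-positive microglia held a mean of 5.38, 3.17 and 4.29 GPNMB UMIs per nucleus in Control 1 to 3 and 3.15, 7.66 and 4.06 in ALP 1 to 3. The groups overlapped, the means were 4.28 ± 1.1 and 4.96 ± 2.38 UMIs (SD, n = 3 each), and at least 2 UMIs were found in a mean of 80.8% and 81.5% of the positive nuclei per library. These values come from nuclei chosen for a GPNMB UMI and were not tested.

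The second comparison asked which other genes differed between GPNMB-positive and GPNMB-negative microglia of the same library. UMIs were summed per library and state, and 2892 genes were tested with edgeR with the library as a block. Of these, 4 were called at an adjusted p under 0.05 and a log2 fold change beyond 0.25 (0.138% of the genes tested), 3 of them higher (0.104%) and 1 lower (0.0346%) in the positive microglia. The higher genes were MITF, ARHGAP24 and APOB-AS-1, the lower gene was UBE2E1-AS-3, and each of the 4 kept its direction in 6 of 6 libraries. The positive nuclei were deeper than the negative nuclei of the same library by a factor of 1.11 to 1.42, and shares after thinning are given beside each gene. A fit to thinned counts could test 376 genes, and of the 4 called genes it tested UBE2E1-AS-3 alone (log2 fold change -1.85, edgeR, adjusted p = 0.00471).

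MITF, the transcription factor known to drive GPNMB, stood at 1139, 184 and 403 CPM in the GPNMB-positive microglia of Control 1 to 3 and at 301, 581 and 485 CPM in those of ALP 1 to 3. In GPNMB-negative microglia it stood at 229, 51.6 and 104 CPM in Control 1 to 3 and at 174, 214 and 158 CPM in ALP 1 to 3. Within every library the positive nuclei were higher, although the ranges over libraries overlapped, since the positive value of Control 2 lay below the negative values of Control 1 and ALP 2. The log2 fold change was 1.66 (SE 0.25, edgeR, adjusted p = 0.000249), and the call was lost without the filter on low counts (log2 fold change 1.09, adjusted p = 0.0857) and without the library as a block (log2 fold change 1.63, adjusted p = 0.494). MITF was detected in 47 of 84 positive nuclei (56.0%) and in 29.9% of negative nuclei, or in 38.7% and 18.6% after thinning to 1000 UMIs.

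ARHGAP24, a GTPase-activating protein for Rac that binds filamin and acts on the actin cytoskeleton, stood at 443, 105 and 144 CPM in the positive nuclei of Control 1 to 3 and at 271, 335 and 340 CPM in ALP 1 to 3. In negative microglia the values were 58.1, 40.1 and 51.3 CPM in Control 1 to 3 and 69.6, 67.7 and 75.9 CPM in ALP 1 to 3. The lowest positive value lay above the highest negative value, so that the states did not overlap in any library. The log2 fold change was 2.09 (SE 0.30, edgeR, adjusted p = 0.000223). ARHGAP24 was found in 50% of positive and 11.8% of negative nuclei, or in 25.9% and 5.61% after thinning, and it was called under all 16 alternatives in which it was tested, with log2 fold changes from 1.55 to 2.74.

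The antisense-named feature APOB-AS-1 stood at 253, 78.9 and 173 CPM in the positive nuclei of Control 1 to 3 and at 451, 447 and 1092 CPM in ALP 1 to 3. In negative nuclei it stood at 185, 11.5 and 25.1 CPM in Control 1 to 3 and at 161, 67.7 and 172 CPM in ALP 1 to 3. ALP 3 held the highest value in the positive state, where 13 of 18 nuclei carried it, and the log2 fold change was 2.17 (SE 0.29, edgeR, adjusted p = 0.000163). It was found in 36.9% of positive and 10.5% of negative nuclei, or in 24.8% and 6.94% after thinning. The use of strand in the counting was not stated, so reads of this feature and of genes on the other strand cannot be told apart. The call was lost when at least 3 microglial UMIs were required (log2 fold change 1.53, adjusted p = 0.462) and without the library as a block (log2 fold change 1.82, adjusted p = 0.954).

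UBE2E1-AS-3, also an antisense-named feature, was the single gene that was lower. It stood at 0, 2921 and 231 CPM in the positive nuclei of Control 1 to 3 and at 0, 480 and 24.3 CPM in ALP 1 to 3, against 413, 5212 and 4425 CPM and 1505, 1365 and 1046 CPM in the negative nuclei. The log2 fold change was -2.76 (SE 0.45, edgeR, adjusted p = 0.00103), and the call was lost without the library as a block (log2 fold change -2.07, adjusted p = 0.993). The feature was found in 15.5% of positive and 24.7% of negative nuclei, or in 13% and 26.4% after thinning. Control 2 went the other way by detection, with 6 of 6 positive and 31 of 54 negative nuclei (57.4%), and it held 6 of the 13 positive nuclei with the feature. Its UMIs were concentrated in few nuclei, since 85.9% of the 163 UMIs in positive microglia came from 5 nuclei. It was abundant outside microglia, with a UMI in 59.7% of nuclei that had 1 microglial UMI and no GPNMB. Markers of excitatory neurons, at 4753 pooled CPM in positive and 5487 in negative microglia, were lower in the positive nuclei of all 6 libraries, and their part in this call was not tested.

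**Figure D3:**
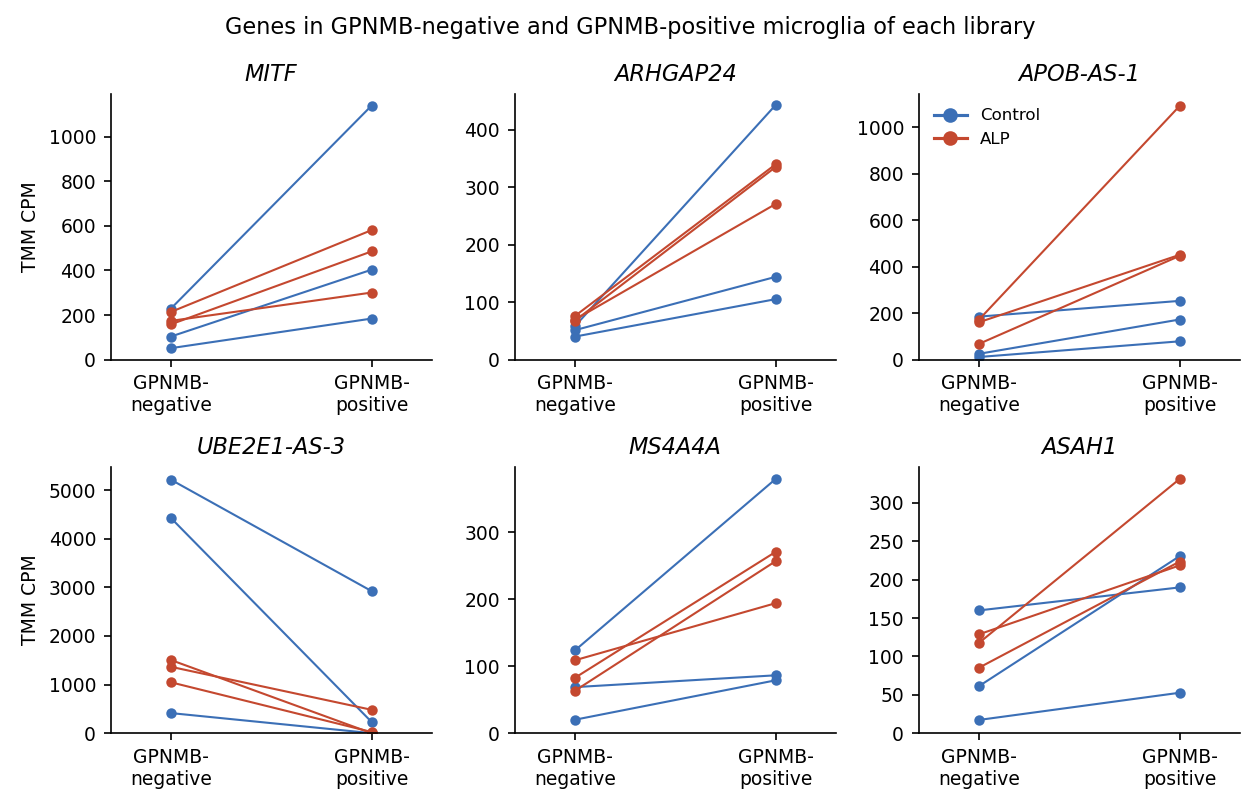
TMM-scaled CPM (y axis, linear scale from 0) of 6 genes in GPNMB-negative and GPNMB-positive microglia (x axis), with 1 line per library, blue for control and red for ALP. The positive end of each line is the higher one for MITF, ARHGAP24, APOB-AS-1, MS4A4A and ASAH1 and the lower one for UBE2E1-AS-3.

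Next to the called genes, MS4A4A and ASAH1 were higher in the positive nuclei of all 6 libraries without passing the threshold. They and FCHSD2 were chosen after their values were seen. MS4A4A, a membrane protein gene at a locus of Alzheimer's disease risk, stood at 380, 78.9 and 86.4 CPM in the positive nuclei of Control 1 to 3 and at 271, 257 and 194 CPM in ALP 1 to 3, against 124, 20.1 and 68.8 CPM and 82.6, 63.3 and 109 CPM in the negative nuclei. Control 2 was the lowest library in both states, and the ranges of the states overlapped. MS4A4A had a log2 fold change of 1.45 (SE 0.32, edgeR, adjusted p = 0.0572), with 52 UMIs in positive nuclei. ASAH1, encoding the lysosomal acid ceramidase, had a log2 fold change of 1.25 (SE 0.30, edgeR, adjusted p = 0.0888) with 53 UMIs. MS4A4A passed the threshold without Control 2 (adjusted p = 0.0378), without Control 3 (adjusted p = 0.0170) and with DESeq2 (adjusted p = 0.0166), while its adjusted p reached 0.963 without the library as a block. ASAH1 passed with DESeq2 (adjusted p = 0.0334). When at least 3 microglial UMIs were required, the log2 fold change fell to 0.56 for MS4A4A (edgeR, adjusted p = 0.835). For ASAH1 it fell to 0.80 (edgeR, adjusted p = 0.688). In the other direction FCHSD2, a gene of endocytic membrane remodelling, had a log2 fold change of -1.17 (SE 0.26, edgeR, adjusted p = 0.0638) and was lower in 6 of 6 libraries.

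The detection of these genes was set beside the number of GPNMB UMIs in the nucleus. MITF was found in 29.9% of microglia with 0, 53.3% with 1, 43.2% with 2 to 4 and 71.9% with at least 5 GPNMB UMIs (1110, 15, 37 and 32 nuclei). After thinning to 1000 UMIs the values were 18.6%, 34.7%, 19.7% and 62.8%. ARHGAP24 was found in 11.8%, 20%, 40.5% and 75% of these nuclei, and in 5.61%, 13.7%, 14.5% and 45% after thinning. Both genes were thus most often found in the nuclei with at least 5 GPNMB UMIs, and for MITF the order of the bins in between was not even, the bin with 1 UMI holding only 15 nuclei. The bins pool the libraries, and 19 of the 32 nuclei with at least 5 GPNMB UMIs came from ALP 2. By detection APOB-AS-1 did not follow this order, with 43.2% at 2 to 4 and 37.5% at 5 or more GPNMB UMIs. Its level rose through the bins, with 95.3, 293, 348 and 716 pooled CPM.

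**Figure D4:**
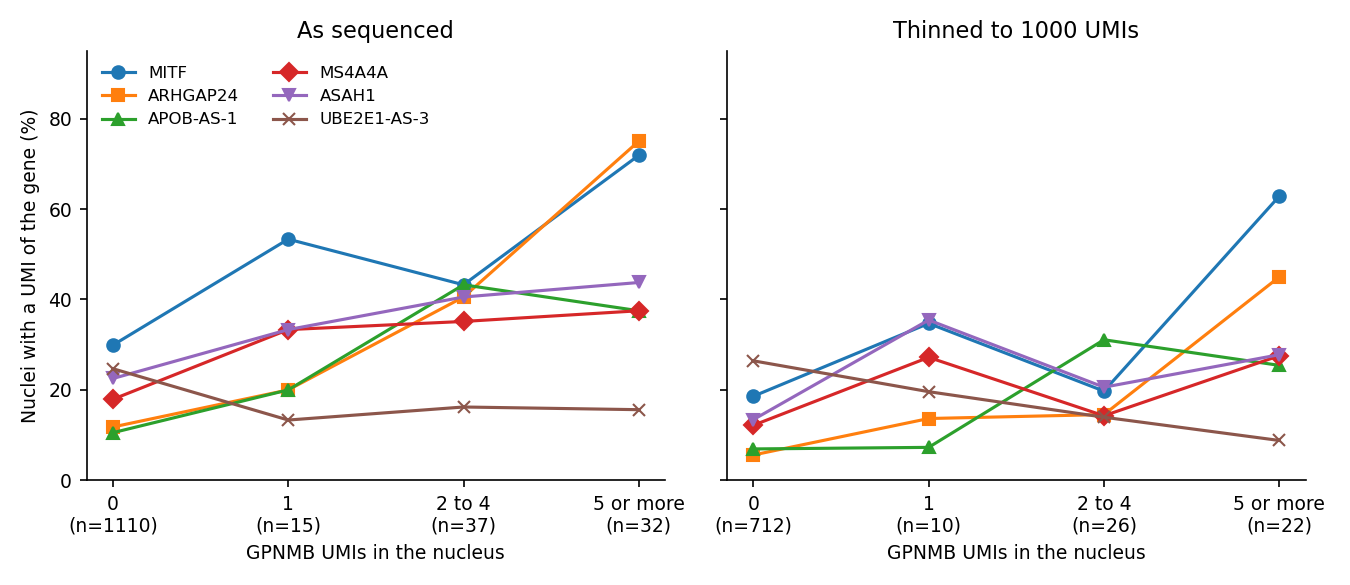
Share of microglia with a UMI of each of 6 genes (y axis, percent) by the number of GPNMB UMIs in the nucleus (x axis, number of nuclei in parentheses), before thinning (left) and the expected share after thinning to 1000 UMIs (right). Lines join the bins of 1 gene, and MITF and ARHGAP24 are highest at 5 or more GPNMB UMIs in both panels.

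The 31 nuclei with GPNMB and 1 microglial UMI, which the rule did not use, gave the same genes in nuclei outside the comparison. In them MITF stood at 211 pooled CPM, ARHGAP24 at 155 and APOB-AS-1 at 267. The values in members were 482, 275 and 451, and in GPNMB-negative microglia 155, 56.9 and 95.3. For these 3 genes the left-out nuclei lay between the members and the GPNMB-negative microglia, with 15, 11 and 19 UMIs behind the values, and they came from the same 6 libraries. Nuclei with 1 microglial UMI and no GPNMB had 56.8, 23.0 and 12.4 pooled CPM, at a median of 4559 UMIs against 1043 in the left-out nuclei. By detection MITF hardly differed, with 32.3% of left-out nuclei against 29.9% of GPNMB-negative microglia. For ARHGAP24 the shares were 29.0% and 11.8%, and for APOB-AS-1 19.4% and 10.5%. In the 31 left-out nuclei UBE2E1-AS-3 stood at 1688 pooled CPM against 650 in members and 2382 in GPNMB-negative microglia. By detection it was not in between, with a UMI in 32.3%, 15.5% and 24.7% of these nuclei.

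Gene lists were then summarised by their counts beside those of all genes tested, of which 1.28% were higher in the positive nuclei of all 6 libraries and 3.18% lower, while 2.63% had an unadjusted p under 0.05 and a higher level and 3.87% a lower level. The median log2 fold change over all genes tested was -0.07. Of 13 genes of the MiT/TFE factors and their regulators, 3 were tested, and only MITF was called. FNIP1, a folliculin partner, had a log2 fold change of 0.27, and TFEC, a paralog of MITF, had -0.56. The summed level of the list was 1097 pooled CPM in positive and 663 in negative microglia and higher in the positive nuclei of all 6 libraries. Without MITF it was 614 against 508 and higher in 5 of 6 libraries, so that MITF supplied most of the difference.

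Lysosomal genes stood higher as a sum. The 55 lysosomal genes in the files held 2839 pooled CPM in positive and 2030 in negative microglia, higher in all 6 libraries and also without CTSC, its most abundant gene (2388 against 1691). Of 10 members tested, 0 were called by edgeR, 2 had an unadjusted p under 0.05 and a higher level (ASAH1 and ATP6V1H, a subunit of the proton pump with 0.78, SE 0.36), and 8 had a positive log2 fold change, with a median of 0.43. The protease gene CTSC had a log2 fold change of 0.27 (SE 0.26). By GPNMB count the summed level was 2030, 2823, 2206 and 4002 pooled CPM at 0, 1, 2 to 4 and at least 5 GPNMB UMIs.

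Genes of disease-associated microglia, a state described near plaques in which lipid and lysosomal genes rise and homeostatic genes fall, held 1818 pooled CPM against 1321 and were higher in 5 of 6 libraries. Control 2 was the exception, with 781 in positive and 1754 in negative microglia. Without CADM1, the most abundant gene, the sums were 1224 and 892 and higher in 4 of 6 libraries. Of 7 members tested 0 were called, 6 had a positive log2 fold change and the median was 0.35. CADM1, an adhesion molecule gene with 149 of the 456 UMIs of the list, had a log2 fold change of 0.34 (SE 0.27), and LGALS3, encoding galectin-3 and chosen after its values were seen, had 0.68 (SE 0.36, edgeR, adjusted p = 0.754). In the positive microglia 16 of 33 members had 0 UMIs. Several classical ones among them carried no information, since APOE had 3 UMIs and FTH1, FTL, CD63, CD68 and CST7 had 0 UMIs over all nuclei. SPP1, with 1314 UMIs in the series, had 17 in negative and 0 in positive microglia. A count of 0 allows up to 3 UMIs, so a low level of SPP1 was not detectable. IGF1, with 2665 UMIs in the series, had 95 in negative and 0 in positive microglia, so a rise was not seen. CLEC7A, chosen after its values were seen and not tested between the states, went the other way. It had 29 UMIs in 22 of the 84 positive nuclei and 64 UMIs in the 1110 negative nuclei.

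Homeostatic genes stood at 4633 pooled CPM in positive and 5140 in negative microglia and were higher in the positive nuclei of 2 of 6 libraries. Of 8 members tested 0 were called, 3 had a positive and 5 a negative log2 fold change, and the median was -0.15. MEF2C, a transcription factor gene of the homeostatic program, had -0.26 (SE 0.22), its paralog MEF2A -0.16 (SE 0.24) and FRMD4A -0.35 (SE 0.25). A fall of single homeostatic genes was thus not detectable in the GPNMB-positive microglia at this depth. The microglial markers that the rule did not use summed to 6424 against 5805 pooled CPM, higher in all 6 libraries. Of these UMIs 430 were from PLXDC2 (log2 fold change 0.63, SE 0.22, edgeR, adjusted p = 0.467), a membrane protein gene, and without PLXDC2 the sums were 4709 and 4653 and higher in 3 of 6 libraries.

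Lipid genes summed to 1416 pooled CPM in positive and 1116 in negative microglia, higher in all 6 libraries, with 6 of 7 members tested positive and a median log2 fold change of 0.29. Without STARD13, its most abundant gene, the sums were 1192 and 932 and higher in 5 of 6 libraries. The lysosomal cholesterol transporter NPC1 had 0.48 (SE 0.38), the triglyceride synthesis enzyme DGAT1 0.28 (SE 0.32) and the lipid-binding START domain protein STARD13 0.29 (SE 0.32), with 0 called. Iron genes summed to 299 against 220 pooled CPM and were higher in 4 of 6 libraries, with ACO1, the iron regulatory aconitase, at 0.53 (SE 0.36). Phagocytosis receptors were 2735 against 2872 pooled CPM, with 3 of 9 tested members positive and 2 at an unadjusted p under 0.05 and a lower level, TIMD4, a receptor for phosphatidylserine (-0.91, SE 0.33), and INPP5D. The engulfment adaptor ELMO1 had a log2 fold change of -0.23 (SE 0.24), the complement receptor subunit ITGAM 0.031 (SE 0.29) and the efferocytosis receptor MERTK 0.44 (SE 0.26).

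Among the other lists, complement genes (518 against 546 pooled CPM), antigen presentation (674 against 666), interferon response (427 against 391) and inflammatory signalling (646 against 695) held 0 called members. Their sums were higher in the positive nuclei of 3, 3, 4 and 4 of 6 libraries, so that for inflammatory signalling the pooled sum and most libraries differed in direction. All 3 tested genes of antigen presentation had negative log2 fold changes although their list sum was higher, CD74, the invariant chain, with -0.51 (SE 0.36), B2M with -0.34 (SE 0.44) and CD86 with -0.066 (SE 0.34). Genes at Alzheimer risk loci summed to 3752 against 4048 pooled CPM with 0 of 11 called, although the list was higher in the positive nuclei of 4 of 6 libraries. PICALM, a gene of clathrin-mediated uptake, had a log2 fold change of 0.50 (SE 0.25, edgeR, adjusted p = 0.726). INPP5D, a phosphatase gene at such a locus and chosen after its values were seen, was lower in all 6 libraries (-0.61, SE 0.29, edgeR, adjusted p = 0.726). Proliferation genes held 7 UMIs in the 84 nuclei. MITF was thus the single member of these lists that was called.

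**Figure D5:**
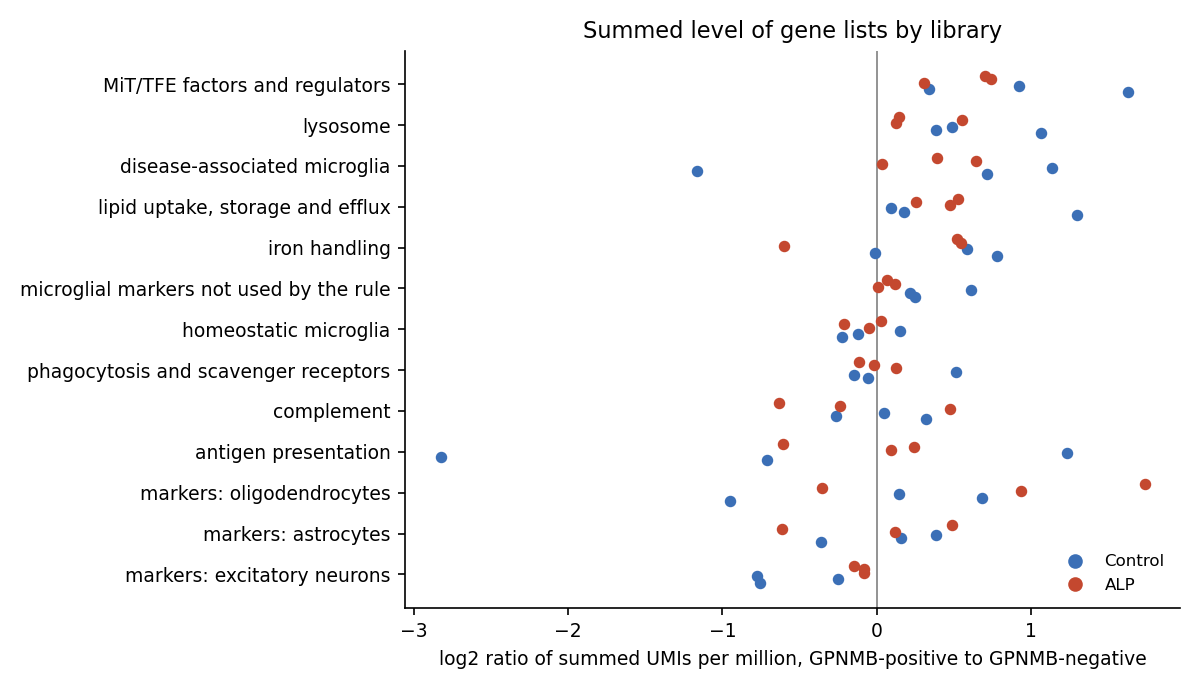
Log2 ratio of the summed UMIs, relative to all UMIs, of 13 gene lists in GPNMB-positive to GPNMB-negative microglia (x axis) by list (y axis), with 1 point per library, blue for control and red for ALP, and a line at equal levels. All 6 points lie right of the line for the MiT/TFE, lysosome, lipid and microglial marker lists and left of it for excitatory neuron markers.

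Markers of other cell types were read in the same nuclei. Oligodendrocyte markers summed to 821 pooled CPM in positive and 681 in negative microglia, higher in 4 of 6 libraries, with ST18 most abundant. MBP, MAG, MOBP and OPALIN were at 0 in the positive nuclei. Over all nuclei they had only 22, 114, 0 and 482 UMIs, so these counts say little. Astrocyte markers summed to 490 against 521, yet were higher in the positive nuclei of 4 of 6 libraries. Markers of inhibitory neurons summed to 455 against 1040 and were lower in 5 of 6 libraries, the exception being Control 2 with 1539 against 817 and 67 of the 114 UMIs in positive nuclei. Of these UMIs 98 belonged to ADARB2 (log2 fold change -1.91, SE 0.44, edgeR, adjusted p = 0.0646). Markers of T and NK cells (112 against 158) and of B cells (79.7 against 177) were lower in the positive nuclei of all 6 libraries. They came mostly from CD2 and BANK1, with CD3D, CD3E, MS4A1 and CD79A at 0. Over all nuclei the latter genes had only 28, 29, 34 and 20 UMIs. Markers of oligodendrocyte precursors summed to 510 against 600, with 2 tested and 0 called. Markers of monocytes (87.7 against 129), endothelial cells (183 against 207) and mural cells (23.9 against 49.9) were too low for any member to be tested. The part of these markers in the results was not tested. When nuclei with at least 5 neuronal marker UMIs were left out, 4 libraries (1 control, 3 ALP) kept enough positive nuclei, and 3 of the 4 called genes, all but UBE2E1-AS-3, which was too low to be tested there, were called again among 19.

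The third comparison was ALP against control within the GPNMB-positive microglia, from 21 control and 63 ALP nuclei. Of 546 genes tested with edgeR, 1 was called (0.183%), DPP10, which encodes an auxiliary subunit of neuronal potassium channels. DPP10 counted 24, 93 and 111 UMIs in the positive nuclei of Control 1 to 3 and 14, 31 and 11 in ALP 1 to 3, which gave 1902, 2404 and 3388 CPM against 413, 342 and 262 CPM. CPM of ALP against control are scaled by TMM factors of their own, so they differ from those given above for the same nuclei. The groups did not overlap, and DPP10 fell by 2.92 on the log2 scale in ALP TSs (SE 0.50, edgeR, adjusted p = 0.0385). In GPNMB-negative microglia DPP10 had a log2 fold change of -1.24 (SE 0.41, edgeR, adjusted p = 0.441), with 766, 990 and 393 CPM in control and 389, 358 and 163 CPM in ALP TSs. In each control library a single nucleus held nearly all of it, 23 of the 24, 85 of the 93 and 109 of the 111 UMIs. The value therefore rests on 3 nuclei, and the call was lost without Control 3 (adjusted p = 0.355), ALP 1 (0.245), ALP 2 (0.0912) or ALP 3 (0.568) and without the filter on low counts (0.159). The log2 fold change in these fits lay between -2.98 and -2.59.

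Among the uncalled genes, CDH9, a cadherin gene of neurons that was chosen after its values were seen, counted 0, 5 and 0 UMIs in Control 1 to 3 and 15, 53 and 31 in ALP 1 to 3 (log2 fold change 3.30, SE 0.73, edgeR, adjusted p = 0.0963). The ALP counts came from 3 of 13, 8 of 32 and 5 of 18 nuclei. In GPNMB-negative microglia CDH9 had a log2 fold change of 0.36 (SE 0.41, edgeR, adjusted p = 0.847). Neuronal markers stood at 2232, 7145 and 3922 pooled CPM in the positive nuclei of Control 1 to 3 and at 4727, 5572 and 4706 in those of ALP 1 to 3, and their part in these values was not tested. Of the 4 genes called between the states, UBE2E1-AS-3 was not tested here and the other 3 were not called. MITF had a log2 fold change of -0.39 (SE 0.67) and ARHGAP24 of 0.58 (SE 0.57), and the groups overlapped for MITF and ARHGAP24. For APOB-AS-1 the 3 ALP values on the scale of this comparison, 443, 441 and 1071 CPM, lay above the control values of 317, 77.5 and 183 CPM. The log2 fold change was 1.93 (SE 0.63, edgeR, adjusted p = 0.274).

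The same contrast in the GPNMB-negative microglia, with 670 control and 440 ALP nuclei, called 0 of 6543 genes with edgeR (0%), while 561 had an unadjusted p under 0.05 and DESeq2 called 19. Of the microglial markers that the rule did not use, 20 of 22 tested had a positive log2 fold change, 7 of them at an unadjusted p under 0.05 and 0 called, with a median of 0.83 against -0.03 over all genes. Their sum in the negative nuclei was 9018, 1876 and 3676 pooled CPM in Control 1 to 3 and 7176, 7127 and 6726 in ALP 1 to 3, so that Control 2 and 3 held less microglial RNA per UMI than the other libraries. Summed markers of vessel cells had lower values in ALP, endothelial markers with 244, 459 and 187 pooled CPM in control and 120, 81.7 and 116 in ALP TSs, and mural markers with 79.7, 147 and 28.5 against 0, 9.07 and 20.9, so that the groups were apart for both. Of 3 endothelial markers tested, FLT1 had a log2 fold change of -2.97 (SE 1.00, edgeR, adjusted p = 0.441) and TEK of -0.24 (SE 0.47). PECAM1 went the other way, with 0.45 (SE 0.36). The part of these markers in the values of single genes was not tested. In these nuclei LAPTM5 had a log2 fold change of 2.08 (SE 0.44, edgeR, adjusted p = 0.283), CTSD of 1.71 (SE 0.41, edgeR, adjusted p = 0.286) and the complement gene C1QA of 1.61 (SE 0.37, edgeR, adjusted p = 0.283). Of 4 complement genes tested, 3 had a positive log2 fold change. CR1 had a negative one (-0.83, SE 0.36, edgeR, adjusted p = 0.558). Without Control 1, which supplied 381 of the 670 control nuclei, 422 genes were called.

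Whether the ALP change differed between the states was tested by the interaction of state and group. Of 4107 genes, 0 were called with edgeR (0%), 169 had an unadjusted p under 0.05, and the smallest adjusted p was 0.0588. Upper-quartile normalization called 2, and without Control 2 the count was 25. MITF (-0.62, SE 0.51), ARHGAP24 (0.28, SE 0.65), APOB-AS-1 (0.75, SE 0.66) and CTSD (-0.93, SE 0.68) did not pass the test, so a difference of the state between ALP and control TSs was not detectable for them with 6 to 8 positive nuclei per control library.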

How the data were processed

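Nuclei of the hippocampus were sequenced with a 10x Genomics 3′ kit. The authors deposited raw counts, UMIs per gene and barcode, from Cell Ranger, given as version 3.1.0 in the submitters' processing notes and as 6.1.2 in the headers of the matrices, aligned to a TreeshrewDB genome whose build and use of strand are not given in the sources used here. All 83605 features and 37603 barcodes were used, and no barcode had fewer than 200 genes.

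Members and gene lists were chosen with earlier results of these data known. Sums of counts by library and state (5 or more nuclei each) went into the quasi-likelihood test of edgeR 4.0.16 (R 4.3.3), scaled by TMM and filtered at a minimum count of 10. Adjusted p-values (Benjamini-Hochberg) cover all genes tested, with the 10 genes of the rule left out. For ALP against control no block was used, because deviations of libraries with the same replicate number did not correlate (r from -0.07 to 0.04). Shares were compared by exact permutation tests over libraries with scipy 1.17.1. Thinned shares are exact expectations. Doublets were scored by simulation at 0.8% per 1000 barcodes, which marked between 2.16% and 6.51% of barcodes, among them 2 members, and were kept in the main analysis. DESeq2 1.42.0, upper-quartile normalization, no filter, stricter rules, doublet removal, library leave-out and the replicate block were alternatives. Named genes are the called genes with the same direction in every library or with groups apart, and for each list its called members or else members with the most UMIs. Others were chosen after their values were seen. The labels number 3 samples per group and the study names 3 animals per group, so p-values measure the spread between these samples.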

Additional observations from a re-analysis of the deposited data

Results flagged for a closer look

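The nuclei with 1 microglial UMI and no exclusion gene were not used in the comparisons above, and their share with a GPNMB UMI was higher in ALP than in control TSs. It was 1.37%, 1.64% and 1.31% in Control 1 to 3 (4 of 293, 3 of 183 and 5 of 383 nuclei) and 2.12%, 5.58% and 2.52% in ALP 1 to 3 (4 of 189, 12 of 215 and 3 of 119 nuclei). The difference of the means was 1.97 percentage points (2-sided exact permutation test, p = 0.1, the smallest value possible with 3 libraries per group). These nuclei came from the same libraries, and GPNMB was chosen with its rise in ALP microglia known. This share is thus no independent support for that rise. ALP 2 carried much of the difference, since its value without ALP 2, computed after seeing the data, was 0.882 percentage points, and the other ALP shares rested on 4 and 3 nuclei. No other result met a criterion for a closer look, and groups of 3 libraries are too small for a test of single libraries.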

How the results depend on the processing

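The share of GPNMB-positive microglia kept its direction under all 14 alternatives, with differences from 5.67 to 9.64 percentage points, the range also of the fits that left out 1 library. The difference in microglia among nuclei turned to 0.270 points without Control 1, and ranged from -0.95 to 0.270 over the fits that left out 1 library. Between states, where 4 genes were called, the count was 116 without a filter on low counts, 8 with DESeq2, 2 (of 376 tested) with nuclei thinned to 1000 UMIs, 8 with the limits of 2500 genes and 5% mitochondrial UMIs, 7 with at least 2 GPNMB UMIs, 11 with at least 10 nuclei per sum, 19 without nuclei of 5 or more neuronal UMIs (chosen after seeing the data), and 4 to 15 with 1 library left out, 15 without Control 2. With no replicate block, that is without the library in the model, it was 1, and MITF (adjusted p = 0.494), APOB-AS-1 (0.954) and UBE2E1-AS-3 (0.993) lost their calls. MITF also lost it without the filter (adjusted p = 0.0857). LAPTM5 turned to 0.053 with at least 2 GPNMB UMIs, 0.066 with at least 10 nuclei per sum, 0.038 without Control 1 and 0.024 without Control 2, with a range of -0.089 to 0.038 over the fits without 1 control library. It was not tested in the fits without an ALP library. With at least 10 nuclei per sum no control library kept a positive sum, so that setting compared the states within the ALP libraries only. For ALP against control in positive microglia, where 1 gene was called, the count was 3 without the filter, 12 with DESeq2, 8 with at least 2 GPNMB UMIs, 2 with at least 3 microglial UMIs, 10 without marked doublets and 0 to 2 with 1 library left out, 2 without Control 2. With the replicate number as a replicate block it was 4 there and 0 in negative microglia, and the numbers do not pair the animals. In negative microglia, where 0 genes were called, the count was 233 without the filter, 19 with DESeq2 and 0 to 422 with 1 library left out, 422 without Control 1 and 0 without Control 2. For the interaction it was 2 with upper-quartile normalization, 2 without the filter and 0 to 25 with 1 library left out, 25 without Control 2. The causes were not tested. The limits on genes and mitochondrial UMIs, the minimum of 10 nuclei and the removal of neuronal nuclei could not be fitted for ALP against control in positive microglia, since fewer than 2 control libraries kept enough nuclei. The 21 control nuclei limit every comparison within the positive state.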

Other observations

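GPNMB was also read in the remaining nuclei that the rule left out. Among nuclei with at least 2 microglial UMIs and an exclusion gene, a GPNMB UMI was found in 4.66%, 15.2% and 8.78% in Control 1 to 3 and in 13.2%, 19.6% and 21.4% in ALP 1 to 3. The groups overlapped through Control 2, the deepest library with a median of 18547 UMIs in these nuclei, and the difference of 8.50 percentage points gave p = 0.2 in the exact permutation test. MITF in these left-out nuclei stood at 188 pooled CPM with GPNMB and 122 without, and ARHGAP24 at 78.6 and 45.4. Among nuclei with 0 microglial UMIs the share with GPNMB was 0.388% ± 0.15 (SD, n = 3) in control against 0.471% ± 0.181 (SD, n = 3) in ALP TSs (exact permutation p = 0.5). As above, shares with GPNMB in these libraries are no independent support for its rise in ALP microglia.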
